A study of Mus musculus with 52 samples.

Results

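The Hox genes of the Cilia-APEX-IMCD3 line were taken as every gene symbol made of Hox, a cluster letter from a to d and a number, which gave 39 of the 24421 symbols counted. They divide into 11 genes of HoxA, 10 of HoxB, 9 of HoxC and 9 of HoxD. Cilia-APEX-IMCD3 is a mouse inner medullary collecting duct line that carries the peroxidase APEX in its primary cilium. RNA was sequenced in 52 libraries, 4 technical replicates of each of 13 cultures. A culture is a clone, by the study's methods grown from a single sorted cell after CRISPR base editing, in 1 state, and is called a clone below.

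Nonciliated cells comprised 2 clones labelled homozygous mutant, Wdr34 and Wdr60, and 4 control clones, AB, 1, 2 and 3. Ciliated cells comprised 3 mutant clones, Wdr60, Wdr34-1 and Wdr34-3, and 4 controls named D8, H12, A4 and G7. By the study's methods, controls also received the base editor, with a guide vector that lacks a target sequence. Titles of the nonciliated libraries begin with BE apart from those of control AB, and whether AB was treated like the other controls is not given there. The missense alleles made were p.Ala911Val in Wdr60 and p.Arg183Trp and p.Gly394Ser in Wdr34. Which of the ciliated Wdr34 clones carries which allele is not stated in the labels, and p.Gly394Ser is not among the nonciliated clones. For p.Gly394Ser against controls in ciliated cells, the study lists Hoxd3 among the genes of a cartilage development term. Further heterozygous base changes lie near the intended ones, a synonymous change in the Wdr60 clone and a missense change, glycine to aspartic acid, in the p.Gly394Ser clone. Controls carry different names in both states and the labels do not match them, while the study's methods count fewer clones than there are cultures, so the same control clones may have been cultured in both states. Each mutant is 1 clone, so a genotype and a clone cannot be told apart in single-clone comparisons. The labels give the same serum-containing medium for all libraries, whereas the study's methods starve ciliated cells of serum. Serum, clone and time of sequencing go with the state and cannot be told apart from it.

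Hox genes encode homeodomain transcription factors that record position along the body axis. Within a cluster they lie in the order of their paralogue numbers, and low numbers tend to be active at the head end and high numbers at the tail end. Polycomb proteins keep silent Hox genes closed and trithorax (MLL) proteins keep active ones open. In the kidney, the group 11 genes Hoxa11, Hoxc11 and Hoxd11 act in the metanephric mesenchyme, and a Hoxb7 promoter is widely used to drive transgenes in the ureteric bud and collecting duct. WDR34 and WDR60 are intermediate chains of dynein-2, the motor of retrograde transport in cilia.

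Levels are CPM, counts per 1000000 counts of a library, scaled by TMM over all 52 libraries, and a clone value is the mean ± SD of its 4 libraries. A gene was taken as expressed in a clone at a mean of at least 1 CPM. Libraries held 14816218 to 28084979 counts. A count of 0 in all 52 libraries (931026986 counts) allows up to 0.00322 CPM, at 3 counts, and covers counting error only. The line's label was checked against 28 collecting duct and ureteric bud markers, with summed levels of 1300 to 5910 CPM. Of these markers, 13 to 14 were expressed in every clone of a group and 9 to 13 were under 1 CPM in every clone of a group. Aqp2, the vasopressin-regulated water channel that defines principal cells, had at most 0.0157 CPM in any clone. Markers of podocytes, endothelium, intercalated cells, immune cells and the thick limb summed to at most 0.0585, 0.138, 2.71, 5.45 and 9.73 CPM. Those of nephron progenitors summed to 41.4 to 165 CPM, and Six2, which defines these cells, had at most 0.014 CPM. Stromal markers summed to 6.89 to 157 CPM and proximal tubule markers to 16.2 to 454 CPM, and their high clones are given below. The edited genes, whose missense changes need not alter RNA level, had 21.7 to 49.5 CPM (Wdr34) and 20.4 to 30.8 CPM (Wdr60).

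A few clones and libraries stood apart before any comparison. The epithelial genes Cdh1 and Epcam were at 4.22 and 2.86 CPM in nonciliated control 2 and at 14.4 and 13.5 CPM in ciliated control G7. In the 11 other clones they ran from 241.8 to 648.7 CPM (Cdh1) and from 182.8 to 836.5 CPM (Epcam). In ciliated Wdr34-3 the keratins Krt8 and Krt18 were at 76.7 and 148.1 CPM, at 41.0 and 112 CPM in nonciliated 2 and at 26.3 and 67.5 CPM in G7, against 371.9 to 950.2 and 529 to 1238 CPM in the 10 other clones. Library 1 of control A4 summed to 299.7 CPM over HoxA, against 190.4 to 229 CPM in its 3 other libraries. Library 1 of nonciliated control AB and library 1 of nonciliated Wdr60 stood apart from their clones for Hoxd9, as given below.

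Of the 39 Hox genes, 23 were expressed in at least 1 clone and 22 in every clone, the difference being Hoxd3. HoxA was on apart from Hoxa13 (10 of 11), HoxB from Hoxb2 to Hoxb9 and at Hoxb13 (9 of 10), and HoxD at Hoxd3, Hoxd4, Hoxd8 and Hoxd9 (4 of 9). HoxC had no gene at 1 CPM in any clone (0 of 9). Genes under 1 CPM in every clone are called silent here, though Hoxc9 had 164 counts and Hoxc10 had 62 over all libraries. These calls set the pattern of the line, and the heat map of clone means shows it as blocks along each cluster.

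**Figure D1:**
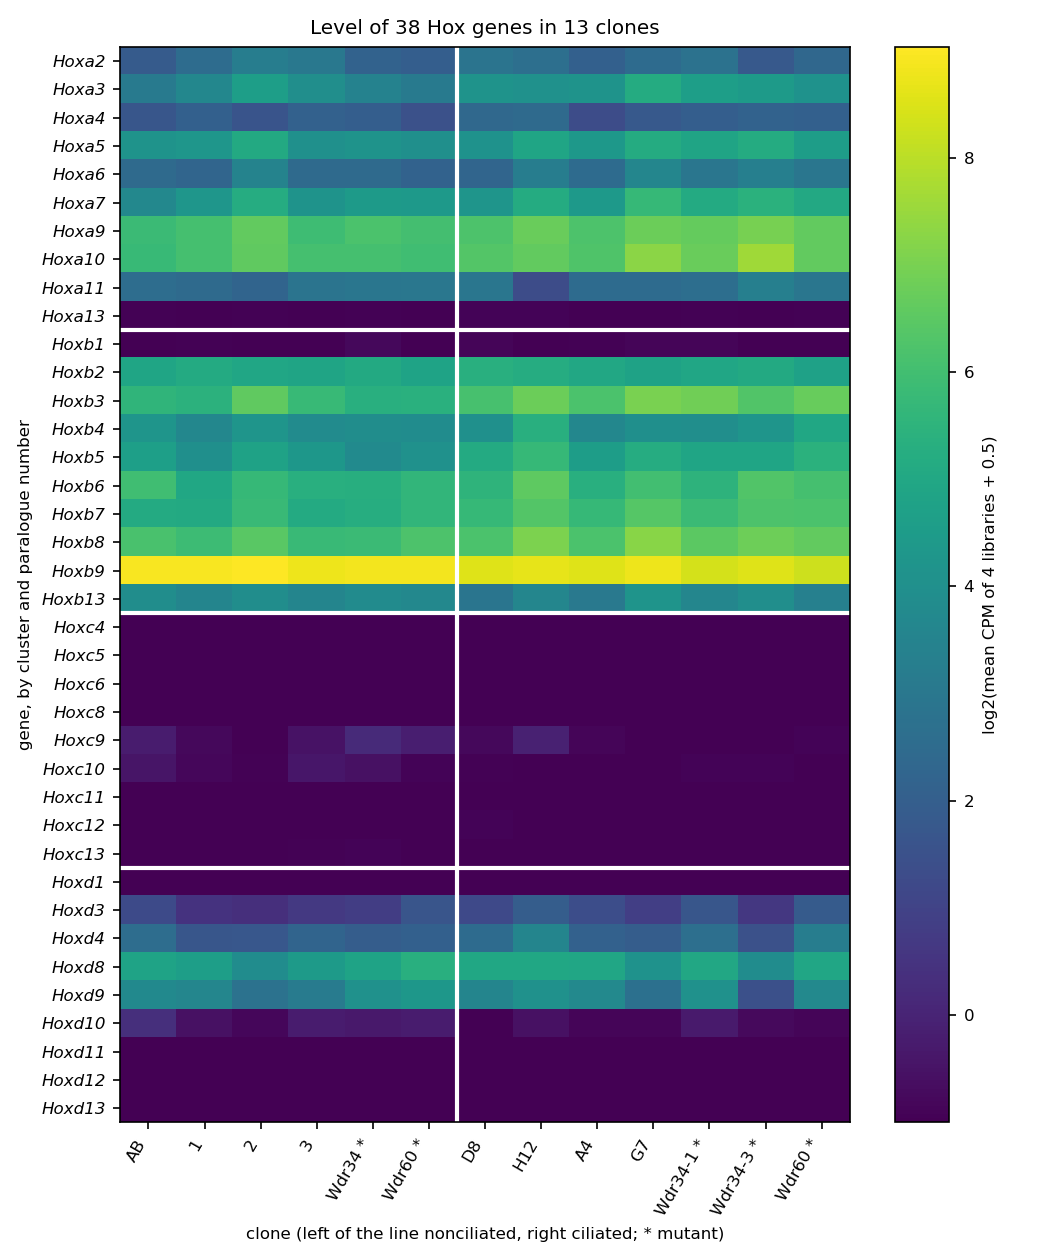
Heat map of 38 Hox genes (rows, by cluster and paralogue number) in 13 clones (columns, nonciliated left and ciliated right of the line, mutants starred). Colour is log2 of the mean CPM of 4 libraries plus a pseudocount of 0.5; HoxC, Hoxa13, Hoxb1, Hoxd1 and Hoxd10 to Hoxd13 stay dark in every clone, and Hoxb9 is brightest.

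All 39 symbols matched RefSeq genes of GRCm38.p6. HoxA lies on chromosome 6 (52155367 to 52260880, minus strand, 105.5 kb), HoxB on chromosome 11 (96194316 to 96368254, plus strand, 173.9 kb), HoxC on chromosome 15 (102921131 to 103036856, plus strand, 115.7 kb) and HoxD on chromosome 2 (74668225 to 74765142, plus strand, 96.9 kb). The annotated span of Hoxa3 covers Hoxa4, Hoxa5 and Hoxa6, that of Hoxb3 covers Hoxb4, and that of Hoxd3 covers Hoxd4. Antisense RNAs such as Hoxa11os overlap others. The strand setting of the counting is not given in the sources used here, so reads of such pairs cannot be assigned with certainty.

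The borders between expressed and silent genes are shown by the 250 bases before the RefSeq start of genes on either side, for windows that overlap no annotated exon (GRCm38.p6, 5′ to 3′ on the gene's strand). Hoxd8 and its neighbour Hoxd9 were on and Hoxd10, next in line, was silent. Hoxa10 and Hoxa11 were on and Hoxa13, the last HoxA gene, was silent. Hoxd4 belongs to the anterior pair of expressed HoxD genes. Capitals mark the TATA box core TATAAA, the CCAAT box and the motif TGATNNAT, a core of joint Hox and Pbx binding, on either strand. No marked matches overlap.
Hoxd4, chr2:74721728-74721977, plus strand: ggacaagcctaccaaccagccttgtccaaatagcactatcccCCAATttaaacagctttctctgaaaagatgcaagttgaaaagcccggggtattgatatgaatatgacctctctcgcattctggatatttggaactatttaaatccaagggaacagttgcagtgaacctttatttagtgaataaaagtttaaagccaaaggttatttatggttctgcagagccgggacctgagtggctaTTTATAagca
Hoxd8, chr2:74704365-74704614, plus strand: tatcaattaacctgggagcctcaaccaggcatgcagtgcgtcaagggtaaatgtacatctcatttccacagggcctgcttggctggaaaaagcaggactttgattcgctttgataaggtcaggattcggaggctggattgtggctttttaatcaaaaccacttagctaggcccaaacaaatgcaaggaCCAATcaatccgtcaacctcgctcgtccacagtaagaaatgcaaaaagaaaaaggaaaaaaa
Hoxd10, chr2:74691641-74691890, plus strand: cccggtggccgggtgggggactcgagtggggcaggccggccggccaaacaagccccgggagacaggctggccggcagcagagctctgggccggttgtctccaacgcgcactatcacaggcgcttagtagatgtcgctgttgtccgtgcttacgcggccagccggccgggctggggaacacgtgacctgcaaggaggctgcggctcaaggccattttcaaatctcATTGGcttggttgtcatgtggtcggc
Hoxa10, chr6:52240855-52241104, minus strand: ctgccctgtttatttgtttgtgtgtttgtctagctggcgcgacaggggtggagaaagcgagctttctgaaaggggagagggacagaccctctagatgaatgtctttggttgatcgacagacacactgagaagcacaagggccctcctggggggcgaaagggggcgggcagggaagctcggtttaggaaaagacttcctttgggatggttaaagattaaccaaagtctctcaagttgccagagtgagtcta
Hoxa13, chr6:52260881-52261130, minus strand: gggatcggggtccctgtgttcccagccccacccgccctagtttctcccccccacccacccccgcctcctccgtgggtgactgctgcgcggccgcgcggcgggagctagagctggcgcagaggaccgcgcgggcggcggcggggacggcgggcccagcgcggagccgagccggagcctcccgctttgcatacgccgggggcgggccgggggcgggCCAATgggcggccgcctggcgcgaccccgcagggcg

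Hoxd4 had a TATAAA match 10 to 5 bases before its start and a CCAAT match, and Hoxd8, Hoxd10 and Hoxa13 each had 1 CCAAT match. The window of Hoxa10 printed had no match, whereas the window of its second RefSeq start, chr6:52234940-52235189, had a TATAAA and a CCAAT match and 20 CpG. The windows printed held 20 CpG (Hoxd10), 35 (Hoxa13), 3 (Hoxd4), 6 (Hoxd8) and 7 (Hoxa10). RefSeq windows were found for 22 Hox genes: 15 windows of 14 expressed genes had a median of 12 CpG (3 to 28) and 9 windows of 8 silent genes a median of 20 (2 to 35), so the ranges overlapped. Of these, TATAAA was in 3 of 15 and 1 of 9 windows (12.4% of all 32851 windows), CCAAT in 8 of 15 and 6 of 9 (33.8%), and TGATNNAT in 2 of 15 and 2 of 9 (7.68%). Matches describe letters and not binding.

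Many silent genes had few counts or none. Hoxc4, Hoxc6, Hoxc8, Hoxc11, Hoxd11, Hoxd12 and Hoxd13 had 0 counts in all 52 libraries. Hoxc5 and Hoxd1 had 1 count each, Hoxc12 had 2, Hoxc13 had 4, Hoxa13 had 13 and Hoxb1 had 21 counts over all libraries. The genes nearest to 1 CPM were Hoxd10, with a highest clone mean of 0.766 CPM (nonciliated AB), Hoxc9, with 0.654 CPM (nonciliated Wdr34), and Hoxc10, with 0.253 CPM (nonciliated 3). Around the limit, Hoxd3 had 0.775 ± 0.227 CPM in nonciliated 2 and 0.876 ± 0.334 CPM in nonciliated 1, and at least 1.05 CPM elsewhere.

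Among the group 11 genes named above, Hoxa11 was therefore the one expressed, with 2.03 to 9.63 CPM, whereas Hoxc11 and Hoxd11 had no count. Hoxb7 was expressed at 33.8 to 83.4 CPM. Of group 13, whose genes pattern the most posterior body, Hoxb13 was on at 6.87 to 17.6 CPM and Hoxa13, Hoxc13 and Hoxd13 were under 0.037 CPM.

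Levels of different genes can be compared per kilobase of exon (GENCODE vM21, basic set). Hoxb9 was highest in 13 of 13 clones, at 163.6 ± 25.2 CPM per kb (SD over 13 clones). Next came Hoxb7 (42.9 ± 13.8), Hoxb8 (33.1 ± 11.2), Hoxa10 (30.0 ± 13), Hoxb6 (27.5 ± 9.08) and Hoxa9 (26.4 ± 6.89), whose spreads over clones overlap each other. The lowest expressed genes per kb were Hoxa4 (2.15 ± 0.564), Hoxd4 (1.90 ± 1.03) and Hoxd3 (0.574 ± 0.275). Within HoxA the mean per kb was highest at Hoxa10, though Hoxa9 was above it in 4 of 13 clones (both nonciliated mutants, nonciliated AB and ciliated H12), and within HoxB it was highest at Hoxb9. The most posterior expressed genes of both were lower, Hoxa11 at 2.62 ± 0.806 and Hoxb13 at 5.52 ± 1.37. In HoxD, Hoxd8 (9.52 ± 2.75) was highest. With the full annotation, exon lengths moved 3 of the 23 values by more than their SD, Hoxa9 to 15.3, Hoxb2 from 19.4 to 9.05 and Hoxa3 from 6.73 to 2.90 CPM per kb, and Hoxb9 stayed highest.

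**Figure D2:**
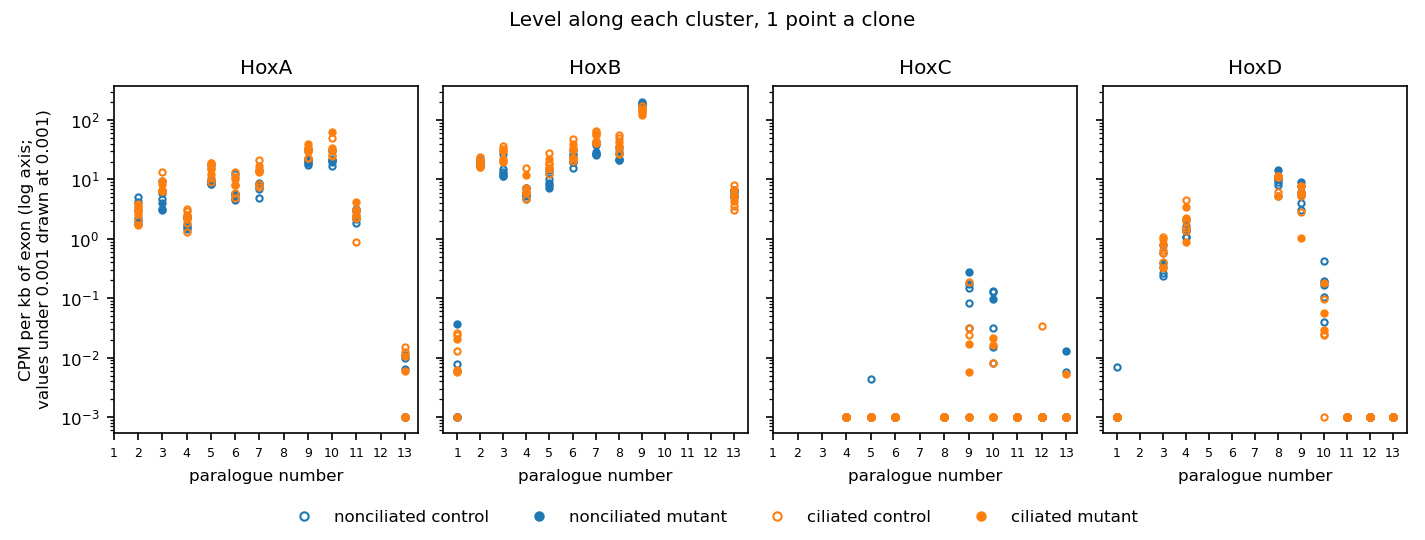
Level of 38 Hox genes per kilobase of exon (log axis, CPM per kb, values under 0.001 drawn at 0.001) against its paralogue number, 1 panel a cluster and 1 point a clone. Hoxb9 lies above every other gene in all clones.

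Control clones of the same state differed from each other in many expressed Hox genes. In an edgeR quasi-likelihood F test among the 4 ciliated controls, 15 of 23 tested Hox genes passed both limits, a p under 0.05 after Benjamini-Hochberg (BH) adjustment over all genes and a largest log2 difference of 1 or more, where 32.9% of 12325 genes were called. Among the 4 nonciliated controls it was 11 of 24, where 25.6% of 12327 genes were called. Without the limit on the difference the numbers were 23 of 23 (85.4% of all genes) and 23 of 24 (80.5%). Without G7 the ciliated count fell to 7 of 23 (17.1% of all genes), without H12 to 9 (27.5%) and without A4 to 12 (29.5%). Without control 2 the nonciliated count fell to 4 of 24 (13.9%) and without AB to 5 of 23 (19.1%). Without the first libraries the counts were 17 and 8, and no share of all genes is given for these. These tests measure clones against the spread of technical replicates. With all 4 clones, the largest log2 differences in ciliated controls were Hoxa11 at 1.79, Hoxb4 at 1.71, Hoxd4 at 1.69, Hoxa7 at 1.53, Hoxa6 at 1.45 and Hoxd9 at 1.44. Among nonciliated controls they were Hoxa3 at 1.59, Hoxa7 at 1.56 and Hoxa2 at 1.51. Hoxd10 is among the 11 called there, but at 0.766 CPM in AB and 0.0724 in control 2 it lies at the edge of the filter on low counts, so its difference is given no size.

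Hoxb9, the highest gene, varied least of the expressed genes between ciliated controls, with a largest log2 difference of 0.25, and by 0.26 between nonciliated controls, beside Hoxb2 at 0.25. Hoxb4 was at 39.7 ± 3.34 CPM in H12 against 12.1 ± 1.48 in A4, 15.5 ± 5.69 in G7 and 15.7 ± 2.64 in D8. The HoxA anterior gene Hoxa3 was at 35.2 ± 3.99 CPM in G7 and at 16.6 to 17.2 CPM in the 3 other ciliated controls. Hoxa10 ranged from 77.5 ± 17.8 CPM in A4 to 157.4 ± 7.53 in G7, and the A4 value includes its library 1 at 102.3 CPM, against 60.3 to 76.0 in the others.

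The other expressed genes are given by the range of clone means. In HoxA these were 2.98 to 8.98 CPM for Hoxa2, 2.04 to 5.09 for Hoxa4, 15.5 to 35.9 for Hoxa5, 3.89 to 11.6 for Hoxa6, 12.3 to 52.03 for Hoxa7 and 56.2 to 126.8 for Hoxa9. Among nonciliated clones, control 2 was highest for all 6 apart from Hoxa4, where control 3 was. In HoxB they were 26.3 to 39.4 CPM for Hoxb2, 31.0 to 93.6 for Hoxb6 and 6.87 to 17.6 for Hoxb13. Among ciliated clones, G7 was highest for Hoxa6, Hoxa7, Hoxb8 and Hoxb13, H12 for Hoxa4 and Hoxb6, and Wdr34-3 for Hoxa5 and Hoxa9.

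Within each state, the summed HoxD level was lowest in the clones in which the HoxA sum was highest. The summed HoxA level was 452.4 ± 24.4 CPM in ciliated Wdr34-3 and 419.3 ± 11.9 in ciliated G7, and 231.4 to 321.3 CPM in the 5 other ciliated clones. The summed HoxD level was 20.1 ± 1.44 CPM in Wdr34-3 and 27.4 ± 0.923 in G7, and 48.6 to 62.3 CPM in the others, so that the groups did not overlap. In nonciliated cells, control 2 had the highest HoxA sum (322.3 ± 11.6 CPM, the others 169.5 to 216.7) and the lowest HoxD sum (24.3 ± 0.622, the others 35.9 to 65.8). The HoxB sum was 958.2 CPM in G7, 954.8 in H12 and 814.5 in Wdr34-3, and 681.8 to 761.5 in the other ciliated clones. In nonciliated cells it was 902.6 CPM in control 2 and 698 to 791.6 in the others. HoxD made up 1.56% of all Hox CPM in Wdr34-3, 1.96% in G7 and 1.95% in nonciliated 2, and 3.82% to 6.58% in the 10 other clones. These shares also fall where HoxA and HoxB are high. These clones were singled out after their values were seen, so the contrast is a description without a test.

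The same 3 clones had the lowest keratins. Krt8 was at 41.0 CPM in nonciliated 2, 26.3 in G7 and 76.7 in Wdr34-3, while Cdh1 (301.1 CPM) and Epcam (287.1) in Wdr34-3 were within the range of the clones other than nonciliated 2 and G7. Further markers of the same epithelial list were high. Cdh16, a kidney cadherin, was at 265.8 CPM in nonciliated 2 (at most 248.4 in the other nonciliated clones), and at 840.9 in G7 and 589 in Wdr34-3 (at most 506.1 in the other ciliated clones). Emx2 was at 94.9, 116.2 and 112 CPM in nonciliated 2, G7 and Wdr34-3 (47.5 to 76.8 elsewhere). Pax2, a regulator of kidney development, was at 276.9 CPM in nonciliated 2 and 309.5 in G7, against 80.6 to 182.1 elsewhere, Wdr34-3 included. Of the 5 nephron progenitor genes, Eya1 was at 36.5 CPM in nonciliated 2 (at most 25.7 in the other nonciliated clones), and at 72.0 in G7 and 120.4 in Wdr34-3 (at most 37.3 in the other ciliated clones). Cited1 was at 4.21 CPM in nonciliated 2 and 11.6 in G7 and at most 0.531 elsewhere. Sall1 was at 37.7, 46.4 and 43.1 CPM in nonciliated 2, G7 and Wdr34-3 against 21.5 to 37.2 elsewhere, and Osr1 stayed under 1 CPM. The stromal gene Foxd1 was at 151.8 CPM in nonciliated 2, 117.2 in G7 and 63.3 in Wdr34-3, against 3.35 to 40.3 CPM elsewhere. The proximal tubule gene Lrp2 was at 271.9, 446.9 and 62.4 CPM in these clones and at 4.61 to 96.5 CPM elsewhere. The other defining stromal genes were low, with Col1a1 at most 5.34 CPM and Pdgfrb at most 0.153 CPM in any clone, and Dcn at 29.2 CPM in Wdr34-3 and at most 1.01 CPM elsewhere. The full stromal list of 9 genes summed to 6.89 to 157 CPM over clones, and the proximal tubule list of 4 to 16.2 to 454 CPM. Whether nonciliated 2 and G7, alike in Cdh1, Epcam, Foxd1, Lrp2, Cited1, Pax2 and HoxD, are the same clone is not given. The part of these markers in the Hox differences was not tested. In bulk RNA, fewer cells with a gene active and less RNA per cell cannot be told apart.

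**Figure D3:**
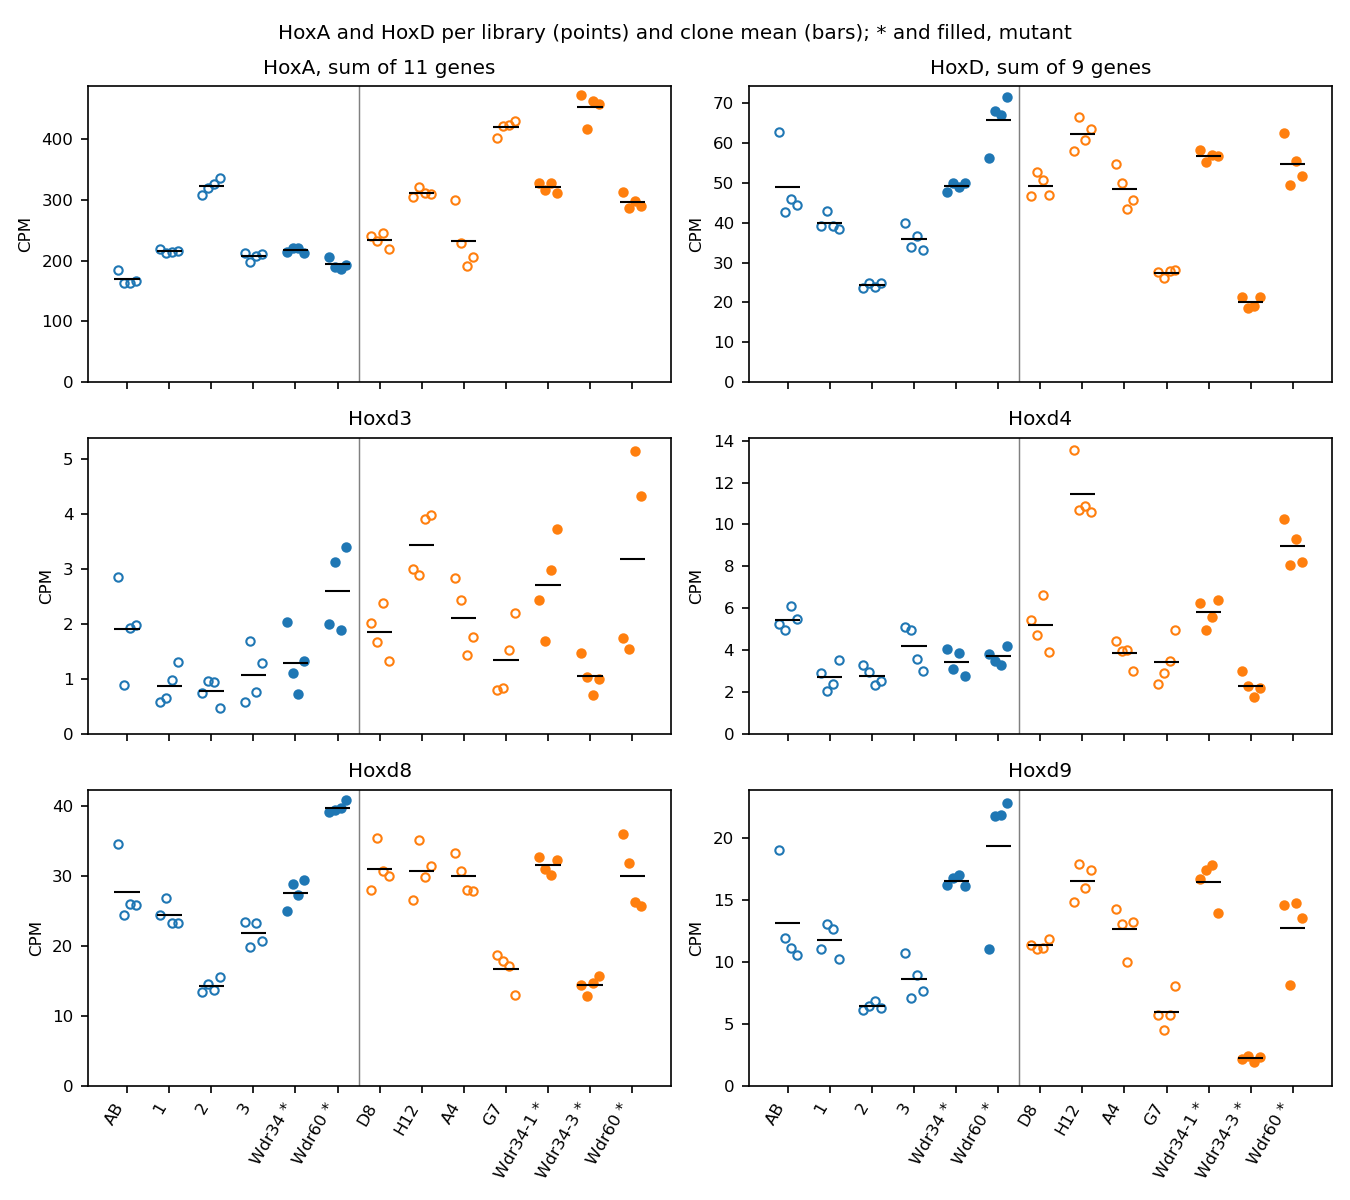
Summed CPM of HoxA and HoxD and CPM of Hoxd3, Hoxd4, Hoxd8 and Hoxd9 in each library (points; open, control; filled and starred, mutant) with the clone mean (bar), nonciliated clones left of the line. HoxD is lowest in nonciliated 2, ciliated G7 and ciliated Wdr34-3, where HoxA is highest within its state.

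Whether the mutations altered the Hox code in ciliated cells was tested with the 12 libraries of the 3 mutant clones against the 16 of the 4 controls (edgeR, BH adjustment over 11950 genes). None of the 23 tested Hox genes passed both limits (adjusted p under 0.05, log2 change of 1 or more either way), where 0.418% of all genes were called higher and 0.226% lower. Without the fold limit 1 was lower, Hoxb9 (-0.22 ± 0.05 SE on the log2 scale, edgeR adjusted p = 0.0219), where 1.59% of all genes were lower, and none was higher (1.58%). DESeq2 with the fold limit also called none, and at an unadjusted p under 0.05 edgeR had 2 Hox genes higher (8.02% of all genes) and 1 lower (11.2%). Hoxb9 did not pass the adjusted p when the Wdr60 or the Wdr34-1 clone was left out. It had 311.6, 337.6 and 373.8 CPM in the Wdr60, Wdr34-1 and Wdr34-3 clones and 369.8 to 437.3 CPM in the controls, so the groups overlapped. Without G7 no Hox gene was called either (1.23% of all genes higher, 1.66% lower), but on the adjusted p alone 6 were higher, Hoxa3, Hoxa5, Hoxa7, Hoxa9, Hoxa10 and Hoxb13 (7.97%), and 2 lower, Hoxb2 and Hoxb9 (8.82%). Hoxa3 thereby went from -0.05 to 0.30 on the log2 scale. An exact 2-sided permutation over all clones gave p = 0.114 for Hoxb9, and 0 of 23 Hox genes reached an unadjusted p under 0.05, with 0.0286 the smallest p for 3 against 4 clones. No Hox gene had mutant clones wholly above or below the controls, where 1.12% and 0.812% of all genes did. The median log2 fold change of the 23 genes was 0.02, and that of all genes -0.01.

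Single ciliated clones were compared with the same 16 control libraries, which these comparisons therefore share. In Wdr34-1 none of 23 Hox genes was called (0.218% of all genes higher and 0.460% lower), none without the fold limit either (0.937% and 1.26%), and 0 higher and 1 lower at p under 0.05 before adjustment (6.37% and 10.0%). On the adjusted p alone, Hoxb9 was lower without A4 (2.87% of all genes) and Hoxa3 higher without G7 (4.31%). DESeq2 called none. In the Wdr60 clone none was called (0.642% and 1.29%), and without the fold limit Hoxb9 was lower (log2 fold change -0.35; 3.43% of all genes lower) and none higher (2.91%). At an unadjusted p under 0.05, 0 were higher (9.54%) and 2 lower (12.4%), and DESeq2 called none. Without control H12, which is high in both, Hoxb4 and Hoxd4 were called higher (1.68% of all genes).

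In Wdr34-3, 3 Hox genes were called lower, Hoxd9, Hoxd4 and Hoxd3, where 2.16% of 12553 genes were lower, and none higher, where 3.64% were. All 4 expressed HoxD genes had negative values, with a median log2 fold change of -1.23, against 0.36 for HoxA and -0.02 for HoxB. The 4 libraries of Wdr34-3 had 2.12, 2.40, 1.95 and 2.33 CPM of Hoxd9, a posterior-side gene of the cluster. Controls had 11.3 ± 0.353 CPM in D8, 16.5 ± 1.41 in H12, 12.6 ± 1.83 in A4 and 5.98 ± 1.49 in G7. All 4 libraries of the clone were below every control library, the lowest of which was 4.47 CPM in G7. The log2 fold change was -2.42 (± 0.34 SE, adjusted p = 3.09e-05 by edgeR).

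Hoxd4 had 3.01, 2.28, 1.73 and 2.19 CPM in Wdr34-3, against 3.43 ± 1.11 in G7, 3.85 ± 0.598 in A4, 5.17 ± 1.15 in D8 and 11.4 ± 1.41 in H12. The fitted log2 change was -1.40 (± 0.44 SE, adjusted p = 0.0282 by edgeR). Single libraries overlapped, since G7 had one at 2.38 CPM.

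Hoxd3 had 1.47, 1.03, 0.704 and 1.01 CPM in Wdr34-3, against means of 1.34 (G7), 1.85 (D8), 2.11 (A4) and 3.44 (H12). The lowest G7 library, at 0.793 CPM, lay among them. The fitted log2 change was -1.07 (± 0.38 SE, adjusted p = 0.0499 by edgeR), just inside the threshold. Hoxd8 stood just outside the fold limit at -0.93 (± 0.21 SE, adjusted p = 0.00357 by edgeR), with 14.4 ± 1.19 CPM against 16.7 ± 2.54 in G7 and 29.9 to 31.0 in the other controls.

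These calls depended on the controls and on other choices. Without control H12, 1 Hox gene was called lower, Hoxd9 (-2.18; 1.70% of all genes lower), and Hoxd4 was at -0.85 and Hoxd3 at -0.75. Without G7, which is low in HoxD too, all 4 HoxD genes were called lower, Hoxd9 at -2.62 and Hoxd8 at -1.09, and Hoxa10 (1.19) and Hoxa11 (1.01) were called higher, while the calls among all genes also went up, to 6.67% lower and 6.38% higher. Hoxd3 also lost its call without D8 or A4, with RLE size factors (edgeR adjusted p = 0.0515) and with no filter on low counts (edgeR adjusted p = 0.0611), and Hoxa2 was called lower without A4 (1.67% of all genes) and Hoxa11 higher without D8 (3.64%). With the replicate number as a block Hoxd9 alone was called, with Hoxd4 at an edgeR adjusted p = 0.0512 and Hoxd3 at 0.0836. Without replicate 1, which removes the first library of A4, Hoxd4 and Hoxd9 were called, and without replicate 2, 3 or 4 Hoxd9 alone. For the replicate block and the replicates left out, no share of all genes is given here. With the libraries of a clone summed, or with the clone as a block, no Hox gene was called, and Hoxd9 had log2 fold changes of -2.42 (edgeR adjusted p = 0.951) and -2.35 (limma adjusted p = 0.173).

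Further genes of Wdr34-3 passed the adjusted p alone (10.9% of all genes lower, 9.85% higher). Hoxa2, an anterior HoxA gene, was lower at -0.87 (± 0.24 SE, adjusted p = 0.0137 by edgeR). Hoxa9, Hoxa10 and Hoxa11, at the posterior end of HoxA, were higher at 0.45, 0.89 and 0.96 (SE 0.22 for Hoxa10 and 0.31 for Hoxa11; edgeR BH-adjusted p = 0.0451, 0.00598 and 0.0331). Of these, Hoxa11 missed the adjusted p with the replicate block (edgeR adjusted p = 0.0609), without A4 (edgeR adjusted p = 0.0677) and whichever replicate number was left out (edgeR adjusted p = 0.0579 to 0.128). Hoxa9 missed it with the replicate block, with no filter, without D8 or A4 and whichever replicate number was left out. Hoxa2 missed it without replicate 1 or 3, and all 4 missed it with clones summed or the clone as a block. Hoxa10 had 199.1, 174.2, 206.1 and 202.2 CPM in the clone, all above the 16 control libraries, whose highest was 165.1 in G7. With the other silent genes of HoxD, the clone had Hoxd10 at 0.102 CPM.

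**Figure D4:**
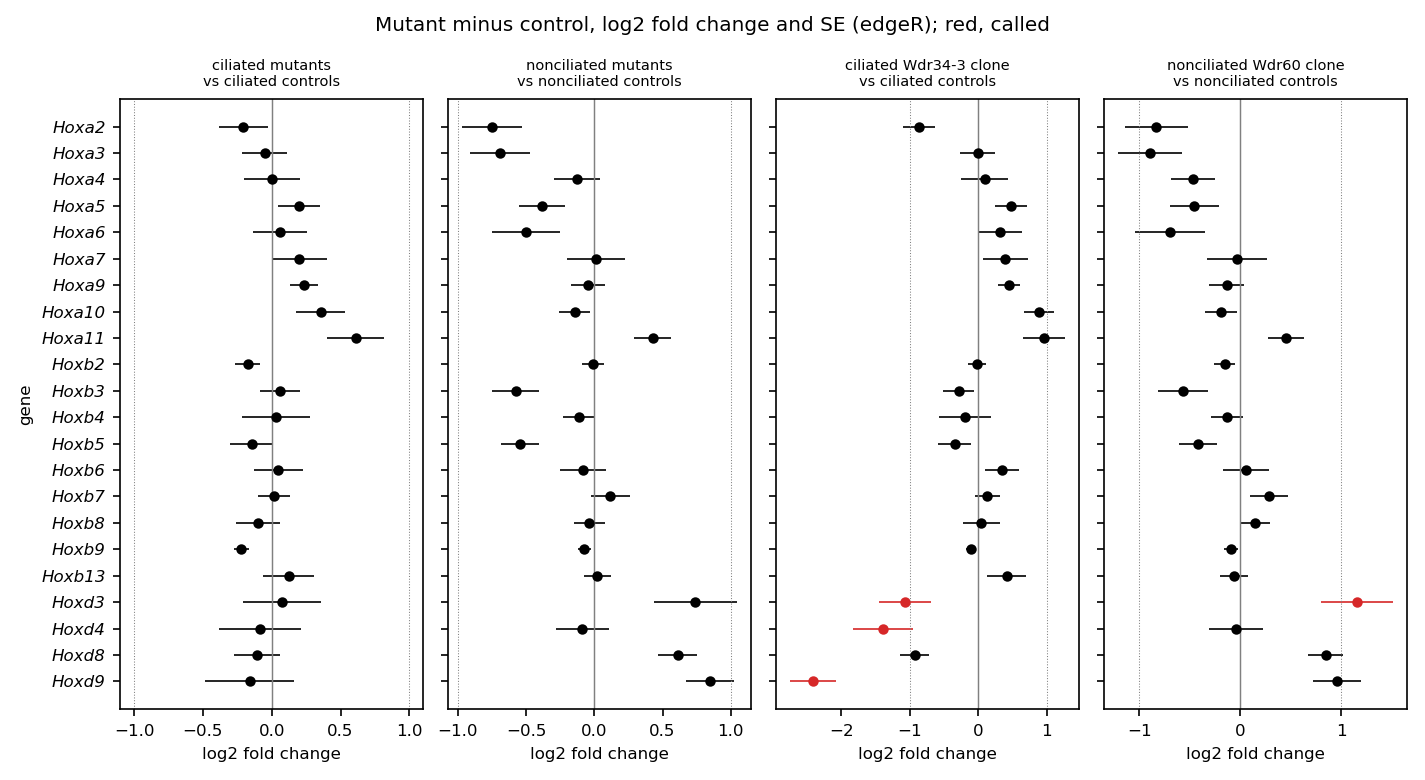
Log2 fold change and SE (edgeR) of 22 tested Hox genes in 4 comparisons of mutant with control libraries; red points passed both limits (adjusted p under 0.05, change of 1 or more either way). The called genes are Hoxd3, Hoxd4 and Hoxd9, lower in ciliated Wdr34-3, and Hoxd3, higher in nonciliated Wdr60.

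In nonciliated cells the 8 libraries of the 2 mutant clones were compared with the 16 of the 4 controls (12012 genes tested). None of 23 Hox genes was called with the fold limit, where 0.491% of all genes were higher and 2.57% lower. DESeq2, whose share of all genes is not given here, called 1, Hoxc9, higher, a gene at most at 0.654 CPM in any clone. At an unadjusted p under 0.05 edgeR had 4 Hox genes higher (14.5% of all genes) and 5 lower (15.8%). On the adjusted p alone 3 were higher, Hoxd9, Hoxd8 and Hoxa11 (7.12% of all genes), and 4 lower, Hoxa2, Hoxa3, Hoxb3 and Hoxb5 (7.89%). Without control 2 these became 4 higher, Hoxa7, Hoxb7, Hoxd8 and Hoxd9 (7.24%), and 2 lower, Hoxb3 and Hoxb5 (7.43%).

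Hoxd9 had 16.5 ± 0.450 CPM in the Wdr34 and 19.4 ± 5.56 in the Wdr60 clone, against 13.2 ± 3.95 in AB, 11.7 ± 1.32 in 1, 6.42 ± 0.321 in 2 and 8.60 ± 1.60 in 3. Both mutant means were above every control mean. The fitted log2 change was 0.85 (± 0.17 SE, adjusted p = 0.00226 by edgeR). The first libraries went against their groups, at 11.1 CPM in the Wdr60 clone (21.8 to 22.8 in its other libraries) and 19.0 in AB (10.5 to 11.95 in the others). Without replicate 1, Hoxd9 passed the fold limit and was called higher. Without control AB, Hoxd3 and Hoxd9 were called higher (1.34% of all genes), and without the Wdr34 clone Hoxd3 (0.986%). Hoxd8 had 39.8 ± 0.790 CPM in Wdr60 and 27.6 ± 1.99 in Wdr34, against 14.3 to 27.7 in the controls, a log2 change of 0.61 (± 0.14 SE, adjusted p = 0.006 by edgeR). On clone means on the log2 scale, Hoxa11, Hoxd8 and Hoxd9 lay above all controls (6.99% of all genes did) and Hoxb3 below (5.89%). Their exact 2-sided permutation p were 0.133 for the former 3 and 0.267 for Hoxb3, where the smallest p for 2 against 4 clones is 0.0667. The difference for Hoxd8 was small against AB, at 27.6 against 27.7 CPM in the means of Wdr34 and AB.

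Of the lower genes, Hoxb5 (-0.54 ± 0.14 SE on the log2 scale, edgeR adjusted p = 0.011) had 13.5 and 16.2 CPM in the mutants and 15.3 to 27.0 in the controls, so the clones overlapped. Hoxb3 had 39.8 and 40.4 CPM in the mutants, against 43.4 to 53.6 in controls 1, AB and 3 and 94.4 ± 3.16 in control 2.

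Of the single nonciliated clones, Wdr34 had no called Hox gene (0.275% of all genes higher and 1.97% lower), with 2 higher and 3 lower at p under 0.05 before adjustment (13.6% and 15.3%) and none by DESeq2. On the adjusted p alone, Hoxd9 was higher (0.73; 5.89% of all genes) and Hoxb5 lower (-0.67; 5.60%). In the Wdr60 clone Hoxd3 was called higher (0.986% of all genes) and none lower (2.43%). Hoxd3 had 1.99, 3.12, 1.89 and 3.397 CPM there, against 1.91 ± 0.806 in AB and 0.775 to 1.08 CPM in the other controls, and the highest AB library, at 2.85 CPM, lay among them. The fitted log2 change was 1.16 (± 0.36 SE, adjusted p = 0.039 by edgeR). Without controls 2, 1 or 3 it was not called (edgeR BH-adjusted p = 0.0673, 0.0957 and 0.0772), and with clones summed neither (adjusted p = 1). The call was also lost with the replicate block (edgeR adjusted p = 0.079), with no filter on low counts (edgeR adjusted p = 0.053) and without replicate 2, 3 or 4 (edgeR adjusted p = 0.241, 0.132 and 0.197). Hoxd8 (0.85) and Hoxd9 (0.96) were higher on the adjusted p alone, which 5.98% of all genes passed higher and 6.01% lower. Hoxd9 was called without replicate 1 (1.24), without AB (1.13; 2.52% of all genes higher) or without control 1 (1.04; 0.786%). Without AB, Hoxa2 and Hoxa3 were called lower (3.87%).

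The Wdr60 allele was sequenced in both states, though the labels do not say that the clone is the same. Its HoxD median was 0.34 in ciliated and 0.90 in nonciliated cells against the controls of each state. The test of the difference between the mutant effects of both states over all clones called none of 23 Hox genes (1.12% of 12544 genes higher and 0.0638% lower), and none on the adjusted p alone (1.50% and 0.391%). Before adjustment 4 were higher (7.89% of all genes) and 3 lower (6.53%) at p under 0.05. DESeq2, whose share of all genes is not given here, called 1, Hoxc9, lower, which is under 1 CPM in every clone. Hoxd9 was at -0.998 (± 0.40 SE, adjusted p = 0.205 by edgeR) and Hoxd8 at -0.71 (SE 0.23, adjusted p = 0.106), ciliated minus nonciliated. Hoxd9 was called lower there when ciliated G7 (1.07% of all genes lower) or ciliated Wdr34-1 (0.120%) was left out. Without G7, 5 Hox genes were higher on the adjusted p alone, Hoxa3, Hoxa5, Hoxa6, Hoxa10 and Hoxb3 (7.60% of all genes). The ciliated side of the Hoxd9 difference rested on Wdr34-3. In ciliated mutants against ciliated controls, Hoxd9 went from -0.16 to 0.32 on the log2 scale when Wdr34-3 was left out. The ciliated mutants include p.Gly394Ser, which the nonciliated mutants lack, so the states are compared over unlike sets of alleles.

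Levels by state were compared between the 4 ciliated and the 4 nonciliated control clones, taken as unrelated because the labels do not match them. No Hox gene was called with the fold limit (6.29% of 11856 genes higher in ciliated cells, 3.99% lower). Hoxd3 was called higher without ciliated G7 (log2 change 1.10, edgeR adjusted p = 0.000341; 6.90% of all genes higher) or without nonciliated AB (1.26, edgeR adjusted p = 6.52e-05; 7.33%). Without H12, which is high in Hoxd3, it was at 0.62. With the libraries of a clone summed (edgeR adjusted p = 0.154) or the clone as a block (limma adjusted p = 0.235) Hoxd3 did not pass the adjusted p. Before adjustment, 13 were higher and 2 lower at p under 0.05, where 33.1% and 31.4% of all genes were. DESeq2 called 2 lower, Hoxc10 and Hoxd10, both under 1 CPM in every clone, and its share of all genes is not given here. On the adjusted p alone, 11 Hox genes were higher in ciliated controls (31.2% of all genes), Hoxa3, Hoxa7, Hoxa9, Hoxa10, Hoxb3, Hoxb5, Hoxb6, Hoxb7, Hoxb8, Hoxd3 and Hoxd4, and 2 were lower (29.7%), Hoxb9 among them. The largest rises were Hoxd3 (0.91), Hoxb7 (0.76) and Hoxb5 (0.76), and the median of the 23 was 0.38, against 0.02 over all genes. Without nonciliated 1 the 11 higher genes became 7 (26.8% of all genes), without H12 8 (29.9%), and without D8 or A4 13 (30.6% and 29.6%). For these 11 genes the exact 2-sided permutation over clones gave no p under 0.05, with p = 0.0571 for Hoxd3.

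Hoxb9 had 369.8 to 437.3 CPM in ciliated and 442.5 to 522.8 CPM in nonciliated controls, so the groups did not overlap, and the log2 change was -0.29 (± 0.04 SE, adjusted p = 6.60e-07 by edgeR). It did not pass the adjusted p with the libraries of a clone summed (edgeR adjusted p = 0.0973) and passed it with the clone as a block (limma adjusted p = 0.0145). Ciliated clone means lay wholly below for 12.5% of all genes and wholly above for 10.6%, and no Hox gene was among the latter. The exact 2-sided permutation p of Hoxb9 was 0.0286, the smallest that 4 against 4 clones (70 splits) gave, and the adjusted p over all genes was 0.124. Higher Hoxb7 was at 52.1 to 83.4 CPM in ciliated and 33.8 to 55.3 in nonciliated controls, which overlapped through control 2.

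**Figure D5:**
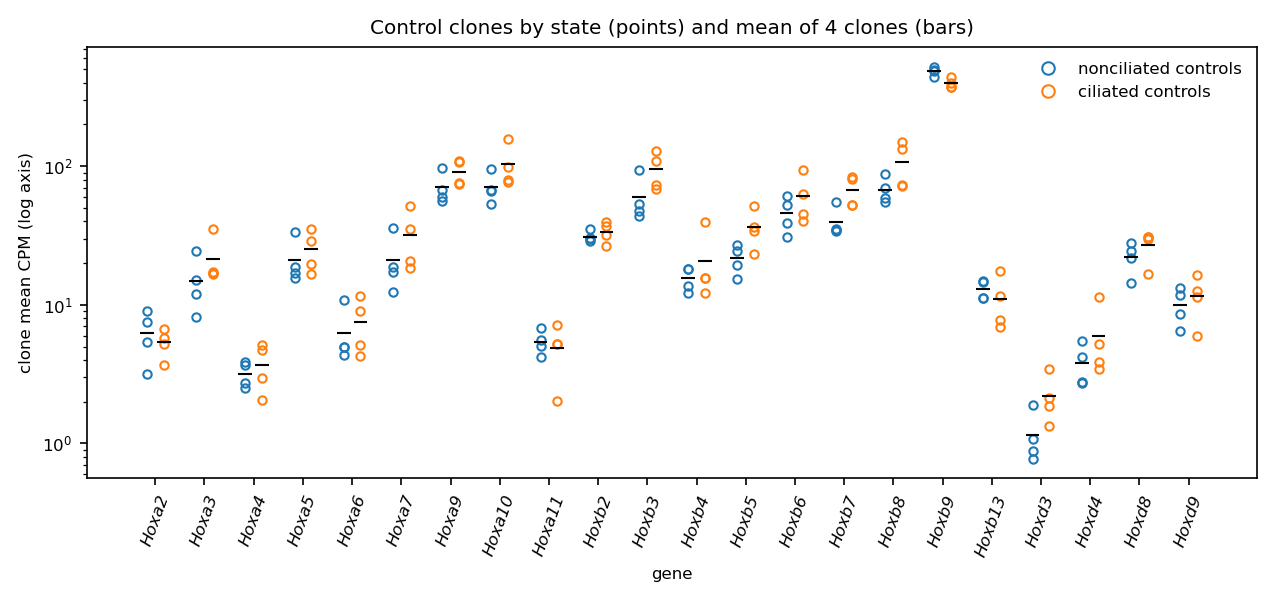
Clone means (points, CPM on a log axis) of 22 expressed Hox genes in 4 nonciliated and 4 ciliated control clones, with the mean of each group (bars). The groups of Hoxb9 do not overlap, with ciliated clones lower, and those of the other genes drawn overlap.

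Genes around and above the clusters were taken from lists. Of 9 Hox cofactors (Pbx, Meis and Pknox proteins, which bind DNA with Hox proteins), 8 were tested and none called in either pooled mutant comparison. There 0.418% of all genes were called higher and 0.226% lower in ciliated cells, and 0.491% and 2.57% in nonciliated cells. In Wdr34-3 all 9 were tested. Pknox2 had 1.17 ± 0.249 CPM there against at most 0.0409 in the controls, and since it passed the filter on low counts only in this comparison, no test is given for it. Meis3 was lower in Wdr34-3 (2.16% of all genes; -1.51 ± 0.41 SE on the log2 scale, edgeR adjusted p = 0.0116), at 4.57 ± 0.737 CPM, close to G7 at 4.80 ± 1.17, while D8, H12 and A4 had 13.02 to 19.4, so that it also differed among the ciliated controls (largest log2 difference 1.98). By state 1 of 8 tested cofactors was called, Meis2, where 3.99% of all genes were lower. It was lower in ciliated than in nonciliated controls (-1.10 ± 0.08 SE on the log2 scale, edgeR adjusted p = 4.60e-13), at 26.2 to 36.8 against 53.2 to 80.5 CPM.

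Of 29 Polycomb genes 28 or 29 were tested in each comparison. None was called in mutants against controls, where 0.218% to 3.64% of all genes were called higher or lower. By state 2 of 28 tested were higher in ciliated controls, a share near the 6.29% of all genes, Ezh1 (1.14), a methyltransferase of histone H3, and Phf1 (1.07), its partner. Of 12 trithorax and MLL genes none was called in mutants or by state, where 0.218% to 6.29% of all genes were called higher or lower. Of 17 inducers and retinoid genes 6 were tested in nonciliated mutants, where 2.57% of all genes were called lower, and 2 were lower. Aldh1a2, which makes retinoic acid, an inducer of anterior Hox genes, was lower (-1.29 ± 0.34 SE on the log2 scale, edgeR adjusted p = 0.0133). It had 8.71 ± 0.806 CPM in the Wdr60 clone and 36.8 ± 0.817 in Wdr34, against 32.6 to 93.4 in the controls. Dhrs3, a retinal reductase, was the other (-2.58 ± 0.28 SE on the log2 scale, edgeR adjusted p = 2.54e-06), at 7.83 and 8.08 CPM against 26.8 to 82.4. In Wdr34-3, 7 were tested and Aldh1a2 was lower (2.16% of all genes; -1.39 ± 0.37 SE on the log2 scale, edgeR adjusted p = 0.00985), at 17.3 ± 1.36 CPM against 22.3 to 71.5. Both genes also differed among control clones alone, Aldh1a2 by up to 1.67 (ciliated) and 1.49 (nonciliated) and Dhrs3 by up to 2.83 and 1.64 on the log2 scale. Dhrs3 was also called where the mutant-against-control fold was compared between the states (2.68 ± 0.52 SE on the log2 scale, ciliated minus nonciliated, edgeR adjusted p = 0.00266; 1.12% of all genes). Of 13 genes that border the clusters 9 or 10 were tested in each comparison. None of these was called in mutants against controls or by state, where 0.218% to 6.29% of all genes were called higher or lower.

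Of 14 RNAs within the clusters, 7 were tested and none was called in mutants against controls, where 0.218% to 3.64% of all genes were called higher or lower. By state 1 of the 7 was higher and 1 lower, where 6.29% and 3.99% of all genes were. The clusters hold microRNA genes of the miR-10 and miR-196 families, shown because miR-196 has a near-complete match in a Hox gene of this line. Mature sequences are from RefSeq (GRCm38.p6), with the seed, bases 2 to 8, in capitals.
miR-10a-5p, HoxB: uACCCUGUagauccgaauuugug
miR-10b-5p, HoxD: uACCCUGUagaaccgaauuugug
miR-196a-5p, HoxB and HoxC: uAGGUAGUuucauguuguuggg
miR-196b-5p, HoxA: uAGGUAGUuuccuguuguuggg

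The pairs share their seeds within a family. A search of Hox transcripts without gaps found the best match of miR-196a-5p in Hoxb8, at 21 of 22 bases, downstream of the coding region at chr11:96284888-96284909 on the plus strand, and its next best gene, Hoxa4, matched at 15. Capitals mark bases complementary to the microRNA, and the lower-case base, which is not, lies opposite the seed.
Hoxb8 site: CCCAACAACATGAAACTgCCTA

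Hoxb8 was expressed at 55.0 to 150.2 CPM. Counts at the Mir196a-1 gene, which may come from longer RNAs across it and do not measure the mature microRNA, were 1.98 to 7.92 CPM over clones, and those at Mir196a-2, in the silent HoxC cluster, were 0. Mir196b in HoxA had 0.326 to 2.22 CPM and was higher in ciliated controls (1.09 ± 0.29 SE on the log2 scale, edgeR adjusted p = 0.00177; 6.29% of all genes). Hoxa11os, antisense to Hoxa11, was lower there (-1.04 ± 0.28 SE on the log2 scale, edgeR adjusted p = 0.00161; 3.99% of all genes), while Hoxa11 itself overlapped between states (2.03 to 7.10 against 4.17 to 6.78 CPM). Hotair and Hottip, long RNAs of HoxC and of the posterior end of HoxA, had 0 counts in every clone.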

How the data were processed

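Cells of 13 cultures, called clones, were sequenced as 52 libraries, 4 a clone. The authors mapped paired-end reads to GRCm38 (mm10) and deposited raw counts per gene symbol, made with featureCounts. The submitters' processing notes name R 3.4.4, featureCounts and DESeq2 1.18.1. Strand setting and treatment of multi-mapping reads are not given in the sources used here. Libraries held 14816218 to 28084979 counts, and 3 counts correspond to 0.107 to 0.202 CPM in a single library.

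The Hox genes and all gene lists were chosen with earlier results of these data known. Of the Hox genes, 1 is held in counts and sums but is not reported here. Of the others, those reaching 1 CPM in a clone are given with values or ranges, those called with their test, and listed genes outside the family where they were called in pooled mutants, in Wdr34-3, by state or in the difference between states. Counts were tested with edgeR 4.0.16 (R 4.3.3; TMM, filterByExpr, quasi-likelihood F test, 2-sided) on libraries by genotype and adjusted by BH over all genes tested. All 4 ciliated control clones of the labels were used, whereas the study's own ciliated comparison used fewer, not named in the sources used here. A call needed both an adjusted p under 0.05 and a log2 change of 1 or more either way. Printed shares of all genes are from edgeR. None is given for DESeq2, RLE size factors, no filter, blocks, summed clones or replicates left out. The 4 libraries of a clone are technical replicates, so these p-values measure the spread between libraries and a difference between clones can pass them. Clone means of log2(CPM + 0.5) were therefore also compared by exact permutation. Control clones were compared by an F test. The scripts were checked on simulated data. Alternatives were DESeq2 1.42.0, RLE size factors, no filter, no fold limit, a replicate block, each replicate or clone left out, summed clones, and voomLmFit (limma 3.58.1) with the clone as a block. The exact permutation by state, the full exon annotation and leaving out clones in the F test were added after the data were seen. Promoter windows and microRNAs came from RefSeq (GRCm38.p6), and exon lengths from GENCODE vM21. Figures were drawn with matplotlib 3.10.9 in Python 3.11.15.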

Additional observations from a re-analysis of the deposited data

Results flagged for a closer look

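Within each group of 4 control clones, a clone was singled out when its gap to the nearest other clone was above Dixon's 95% critical value as a share of the group's range. This held for 6 of 46 groups (23 genes in 2 states). The nominal rate of the rule, about 1 in 20, holds for independent groups, and these groups share their clones. The rule was run on Hox genes only, so no share over all genes stands beside the count, and no excess is read from it. Among ciliated controls, Hoxa3 was at 35.2 CPM in G7 (16.57 to 17.17 in the others), Hoxd8 was at 16.65 CPM in G7 (29.94 to 30.98) and Hoxb4 was at 39.72 CPM in H12 (12.11 to 15.73). Among nonciliated controls, clone 2 was apart for Hoxa5 at 33.32 CPM (15.69 to 18.61), Hoxa6 at 10.82 CPM (4.324 to 4.985) and Hoxb7 at 55.31 CPM (33.83 to 35.03). Of these 6, 5 came from G7 and nonciliated 2, the clones with Cdh1 at 14.4 and 4.22 CPM, and the part of that difference was not tested.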

How the results depend on the processing

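None of the 36 Hox values past the adjusted p changed sign under the alternatives run. Of the 171 values not past it, 197 of 2739 alternative values had the other sign, at most 0.488 on the log2 scale, and 2 of them passed the adjusted p, Hoxa3 higher without G7 in ciliated mutants (0.30) and in Wdr34-3 (0.35). Hoxd4 in nonciliated Wdr60 went from -0.04 to 0.19 without AB. Without the fold limit, Hox genes past the adjusted p were 1 lower in ciliated mutants, 3 higher and 4 lower in nonciliated mutants, 1 lower in ciliated Wdr60, 3 higher and 5 lower in Wdr34-3, 1 higher and 1 lower in nonciliated Wdr34, 3 higher and 1 lower in nonciliated Wdr60, 11 higher and 2 lower by state, and 23 and 23 among control clones. DESeq2 gave 1 higher in nonciliated mutants, 2 lower by state and 1 lower in the difference between states. RLE size factors gave 2 lower in Wdr34-3. No filter also gave 2 lower in Wdr34-3, and 1 higher in nonciliated mutants, 0 higher in nonciliated Wdr60, 1 higher and 2 lower by state and 1 lower in the difference. With the libraries of a clone summed, or the clone as a block, Wdr34-3 had 0 lower and nonciliated Wdr60 0 higher, and the clone block gave 1 lower by state. The causes were not tested.

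With the replicate block, Wdr34-3 had 1 lower and nonciliated Wdr60 0 higher. The labels give same-numbered libraries nothing but the number in common. Their correlations had medians of 0.0135 (-0.400 to 0.806, ciliated) and 0.0209 (-0.477 to 0.281, nonciliated), and 12 of 28 and 1 of 24 correlated best with their own number. Leaving out a replicate gave 0 to 1 higher in nonciliated mutants, 1 to 2 lower in Wdr34-3, 0 to 2 higher in nonciliated Wdr60, 0 to 1 lower in the difference, and 14 to 17 differing among ciliated and 8 to 13 among nonciliated controls. Leaving out a clone gave 0 to 2 higher in nonciliated mutants, ciliated Wdr60 and Wdr34-3, 1 to 4 lower in Wdr34-3, 0 to 2 higher and 0 to 2 lower in nonciliated Wdr60, 0 to 1 higher (Hoxd3) and 0 to 1 lower by state, 0 to 1 lower in the difference, 7 to 14 differing among ciliated and 4 to 9 among nonciliated controls. The share of all genes called also moved when a clone was left out, for Wdr34-3 lower from 1.39% without D8 to 6.67% without G7. The counts of this section are given without such shares, so they do not stand apart from that movement. Depth limits genes near 0.107 to 0.202 CPM, 3 counts in a library.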
